A study of Mus musculus with 8 samples.

Results

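The metallothionein genes Mt1 and Mt2 and the gene of the zinc sensor MTF-1, Mtf1, were followed in Paneth cells (PCs) of 8 mice. The genes were chosen by name, as 3 of the 55414 genes in the count table, and all 3 were among the 10707 genes that passed the expression filter. PCs are the secretory cells found deepest in the small intestinal crypts, and they were sorted by fluorescence-activated cell sorting. Of the mice, 4 drank Milli-Q water (purified laboratory water) and 4 drank water with 25 mM zinc sulfate, in both arms for 7 days. By the labels every mouse, controls included, was then injected with the inflammatory cytokine tumor necrosis factor (TNF), and tissue was taken 3 hours later. Of 1 zinc library the values go against that label, as given below. The methods of the study describe C57BL/6J mice, while the age of these mice and the dose of TNF are not given in the sources used here. One RNA-seq library was made per mouse, named here by its group and replicate number.

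Metallothioneins are small cysteine-rich proteins that bind zinc, copper and cadmium, and Mt1 and Mt2 are the members made in most tissues, including the intestine. MTF-1 is a transcription factor with zinc fingers that binds more zinc when free zinc rises, moves to the nucleus and acts through metal response elements (MREs), short DNA motifs near the starts of its target genes. Its own transcript is not known for a large response to zinc, and the metallothionein genes also respond to glucocorticoids and to interleukin-6. PCs hold zinc in their secretory granules.

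Mt1 (ENSMUSG00000031765) lies at chr8:94905710-94906955 and Mt2 (ENSMUSG00000031762) at chr8:94898819-94900207, both on the plus strand of GRCm39. Mtf1 (ENSMUSG00000028890) lies on the plus strand at chr4:124695897-124743593. The MRE core was searched on both strands as TGCACNC or TGCGCNC, 2 spellings that cannot match at the same position, in windows from 250 bases before to 50 bases after each annotated start (GENCODE M39). The letters TGCGC also occur in the motif of the factor NRF-1. Taking all annotated starts of a gene together, 5 matches were found for Mt1 and 7 for Mt2, and they are shown because these letters are the known link between MTF-1 and the genes measured here. Each is written 5′ to 3′ on the strand of the match, from the GRCm39 genome, with the 7 letters of the core in capitals and 7 bases on either side.
Mt1 site 1, chr8:94905687-94905707, plus strand: cccgctgTGCACACtggcgct
Mt1 site 2, chr8:94905712-94905732, plus strand: ggagctcTGCACTCcgcccga
Mt1 site 3, chr8:94905730-94905750, plus strand: cgaaaagTGCGCTCggctctg
Mt1 site 4, chr8:94905794-94905814, minus strand: aagggttTGCACCCagcaggc
Mt1 site 5, chr8:94905808-94905828, plus strand: aacccttTGCGCCCggactcg
Mt2 site 1, chr8:94899016-94899036, plus strand: tcgcctcTGCACCCggcccct
Mt2 site 2, chr8:94899111-94899131, plus strand: gacccttTGCGCTCagctcct
Mt2 site 3, chr8:94899189-94899209, minus strand: cagagccTGCACACgccctcc
Mt2 site 4, chr8:94899243-94899263, minus strand: ctgggccTGCGCACgacccga
Mt2 site 5, chr8:94899297-94899317, minus strand: cgccgccTGCACACgcccttt
Mt2 site 6, chr8:94899316-94899336, minus strand: ggcaccaTGCACGCgcccccg
Mt2 site 7, chr8:94899350-94899370, plus strand: gagctttTGCGCTCgacccaa

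Of the Mt1 matches, site 1 lay outside the canonical transcript and sites 2 to 5 lay in the untranslated part of its exon 1. Of the Mt2 matches, sites 1 and 2 lay outside the canonical transcript and sites 3 to 7 in the untranslated part of exon 1. The window at the canonical start of Mt1 held 3 matches and that at its other annotated start, 159 bases downstream, held 5. For Mt2 the canonical start had 2 matches in its window, and the other starts had 0, 3 and 4. Over the canonical starts of 21757 protein-coding genes, 27.4% of windows held at least 1 match, 7.14% at least 2, 1.99% at least 3, 0.46% at least 4 and 0.147% at least 5. None of the 6 annotated starts of Mtf1 had a match in its window, which says only that these letters are not there. A match is a description of letters and was not measured as a bound site.

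**Figure D1:**
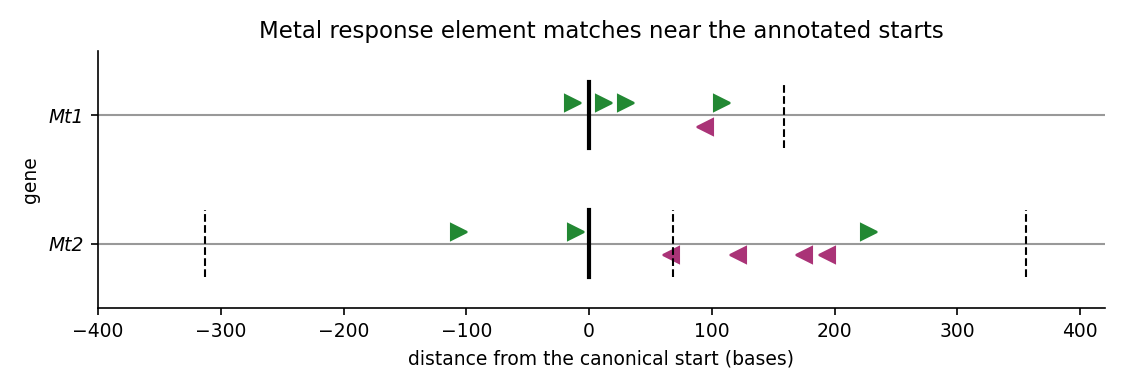
Positions of the MRE core matches of Mt1 and Mt2 in bases from the canonical start of each gene, with green arrowheads for matches on the plus strand and purple arrowheads for matches on the minus strand. The thick line is the canonical start and the dashed lines are other annotated starts; the 5 Mt1 matches lie from 13 bases before (-13) to 108 bases after the canonical start, and the 7 Mt2 matches from -106 to 228.

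Library totals ran from 10623658 to 15101627 counts, and an observed 0 allows at most 3 counts, or 0.179 to 0.369 CPM (read counts brought to one library size by edgeR's TMM factors). The defining PC transcripts were present throughout, with 8 markers summing to between 390479 and 733570 CPM. Zinc replicate 3 stood apart, with a correlation across genes of at most 0.890 to any other library, and its summed level of 18 TNF and NF-kB response genes was 172 CPM against 1884 to 2222 CPM in the other 7. That level goes against its TNF label, so zinc replicate 3 stands throughout for the library labelled as zinc and TNF, replicate 3. In Milli-Q water replicates 3 and 4 the deviation from the gene means fell with transcript length (Spearman's rho -0.333 and -0.340, against no such fall elsewhere), and Mtf1 has a longer canonical transcript than 92.0% of the genes tested. Where leaving out these libraries moved a result of the members by a large amount or turned its sign, both values are given. In sorted bulk samples, fewer cells of a type and less RNA per cell cannot be told apart. P-values measure the spread between mice, and intervals on counts hold counting error within a library alone. The libraries had no molecular identifiers, so these intervals do not cover copies made by amplification.

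Mt1 transcripts were most abundant in zinc replicates 1 and 2 and were not above the water range in the other zinc mice. On Milli-Q water Mt1 stood at 41.0, 44.3, 68.2 and 36.0 CPM in replicates 1 to 4, and on zinc at 254, 107, 29.5 and 45 CPM. Replicates 1 and 2 on zinc were above all water mice, replicate 4 was inside the water range and replicate 3 was below it, so the groups overlapped. The means were 47.4 ± 14.3 CPM on water and 109 ± 102 CPM on zinc (SD, n = 4 each). In edgeR's quasi-likelihood fit across all genes the log2 fold change of zinc over water was 1.20 (SE 0.563), with a Benjamini-Hochberg adjusted p = 0.485. With every mouse weighted alike, as a difference of mean log2 CPM, the change was 0.75, or 1.69-fold, with a two-sided exact permutation p of 0.343. The 70 assignments of mice to groups allow no p under 0.0286.

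Mt2 followed the same order at its upper end, over a wider span. On water it stood at 6.50, 7.09, 22.9 and 4.00 CPM, and on zinc at 172, 49.8, 8.35 and 4.03 CPM. Zinc replicates 1 and 2 were again above every water mouse, while replicates 3 and 4 lay inside the water range. The means were 10.1 ± 8.62 and 58.6 ± 78.6 CPM (SD, n = 4 each), and edgeR gave a log2 fold change of 2.57 (SE 1.02) with an adjusted p = 0.485. Weighting the mice alike gave 1.52 on the log2 scale, or 2.87-fold, with an exact permutation p of 0.257. Across all genes the adjusted threshold of 0.05 was passed by 0 of 10707 (0%), and 10.2% had an unadjusted p under 0.05 in edgeR (6.42% higher and 3.78% lower with zinc). DESeq2 called 4 genes, named here after their values were seen, which were Lrp1, Cd74, Slc14a1 and Ms4a12 and so neither a metallothionein nor a gene of the MTF-1 list. By size alone, 1.89% of genes had a log2 fold change at least as large as that of Mt1 and 0.103%, which is 11 genes with Mt2 itself among them, at least as large as that of Mt2.

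Both metallothionein changes depended on zinc replicate 1. Without that library, the edgeR log2 fold change was 0.36 for Mt1 and 1.09 for Mt2. Without zinc replicate 3 it was 1.52 for Mt1 (edgeR, adjusted p = 0.50) and 2.97 for Mt2 (adjusted p = 0.50), both with an unadjusted p under 0.05, as 8.06% of all genes then had. Mt2 itself was then the 1 gene of 10755 (0.0093%) with a change that large. Without zinc replicate 4 the values were 1.45 and 2.96, and without Milli-Q water replicates 3 and 4 they were 1.34 and 3.10.

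**Figure D2:**
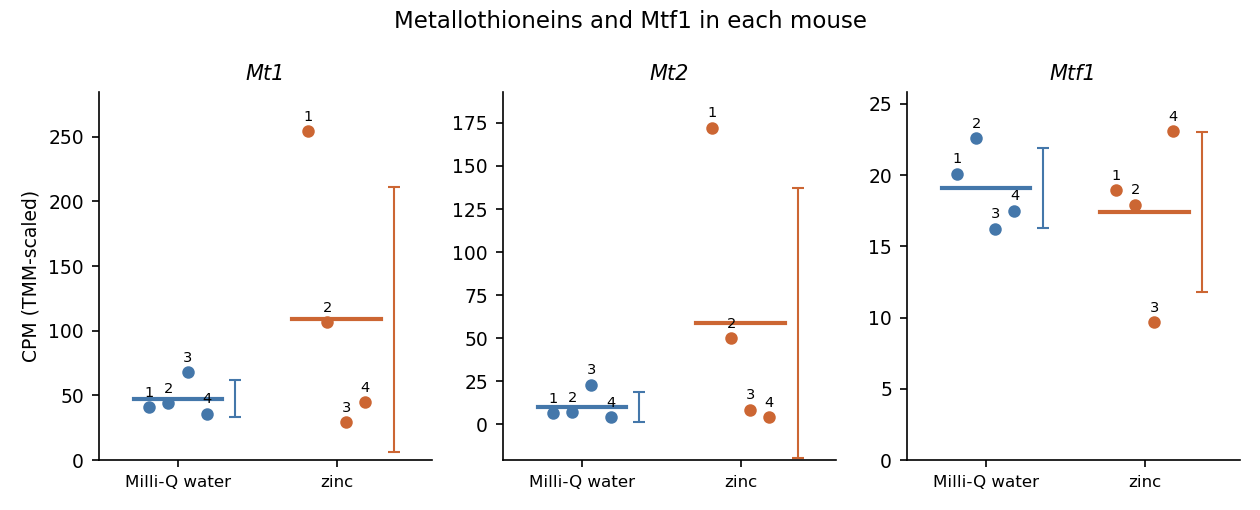
CPM of Mt1, Mt2 and Mtf1 in each mouse, with numbered points for the replicates, a horizontal line for the group mean and an error bar of ± 1 SD (n = 4). For Mt1 and Mt2 zinc replicates 1 and 2 are above all water mice and zinc replicates 3 and 4 are not, and for Mtf1 the lowest point is zinc replicate 3 at 9.68 CPM.

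Mtf1 was present in all mice at a low and narrow range. It stood at 20.1, 22.6, 16.2 and 17.5 CPM on water and at 18.9, 17.9, 9.68 and 23.1 CPM on zinc. The zinc mice spanned the whole water range and passed it at both ends, with replicate 3 lowest and replicate 4 highest of all 8. The means were 19.1 ± 2.81 and 17.4 ± 5.6 CPM (SD, n = 4 each), and the edgeR log2 fold change was -0.14 (SE 0.237, adjusted p = 0.818). Without zinc replicate 3 the sign turned, to 0.061. Without Milli-Q water replicates 3 and 4 the value was -0.30, and with a correction for transcript length it was -0.24. The difference of mean log2 CPM was -0.19 with an exact permutation p of 0.686.

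Levels were compared between genes after division by the length of the canonical transcript, which was 762 bases for Mt1, 748 for Mt2 and 7636 for Mtf1. Mt1 then stood at 53.8, 58.1, 89.5 and 47.2 CPM per kilobase on water and 333, 140, 38.8 and 59.1 on zinc. Mt2 stood at 8.68, 9.47, 30.6 and 5.34 on water and 230, 66.5, 11.2 and 5.39 on zinc, below Mt1 in every mouse. Mtf1, between 1.27 and 3.02 CPM per kilobase, was the lowest of the 3 genes in each mouse. Among 10694 genes ranked by this level from the highest, Mt1 held ranks 279 to 534 on water and rank 62 in zinc replicate 1. Mt2 held ranks 867 to 4129 on water and rank 88 in zinc replicate 1, while Mtf1 ran from 5729 to 8278 over all mice.

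The other family members were scarce. Mt3, best known from the brain, had 97 counts in all, at 0.615, 0.655, 1.11 and 0.40 CPM on water and 1.5, 0.932, 2.03 and 0.403 CPM on zinc. The groups overlapped, and the log2 fold change was 0.85 (SE 0.530, edgeR adjusted p = 0.535). Mt4, a gene of stratified epithelia, had 0 counts in every library, which allows up to 0.179 to 0.369 CPM. Of the 50-base words in their annotated transcripts, those of Mt1 (1338) and Mtf1 (9421) shared 0 with any other gene, and those of Mt2 (1248) shared 3. Only identical words of annotated transcripts were compared. Copies with mismatches, or outside the annotation, were not covered.

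The Mt1 to Mt2 ratio was taken from the counts, and so needs no scaling between libraries. It was 6.32, 6.24, 2.98 and 9.0 in water replicates 1 to 4 and 1.47, 2.14, 3.54 and 11.2 in zinc replicates 1 to 4. The ratio was lowest in zinc replicates 1 and 2, and zinc replicate 4 had the highest of all, so the groups overlapped. As a share of both genes' counts, Mt1 took 59.6% (95% Wilson interval 58.2 to 61.0) in zinc replicate 1, from 4551 counts, and 68.2% (66.2 to 70.1) in zinc replicate 2, from 2179 counts. The share was 91.8% (89.3 to 93.7) in zinc replicate 4 and 90.0% (87.1 to 92.3) in water replicate 4, whose intervals overlapped, and 74.9% (71.6 to 77.9) in water replicate 3.

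The mean log2 ratio was 2.50 ± 0.667 on water and 1.74 ± 1.26 on zinc (SD, n = 4 each). The difference of -0.77 was smaller than the spread among zinc mice, with a two-sided exact permutation p of 0.314. It was -0.38 without zinc replicate 1 and -1.35 without zinc replicate 4. The ratio was ordered by the total of both genes at the upper end: the 3 libraries with the highest sums of Mt1 and Mt2, zinc 1 (426 CPM), zinc 2 (156 CPM) and water 3 (91.1 CPM), had the 3 lowest ratios. Zinc replicate 3 had the lowest sum, 37.9 CPM, with the next ratio in that order. The ratio and the sum are built from the same counts, so their order is a description only.

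**Figure D3:**
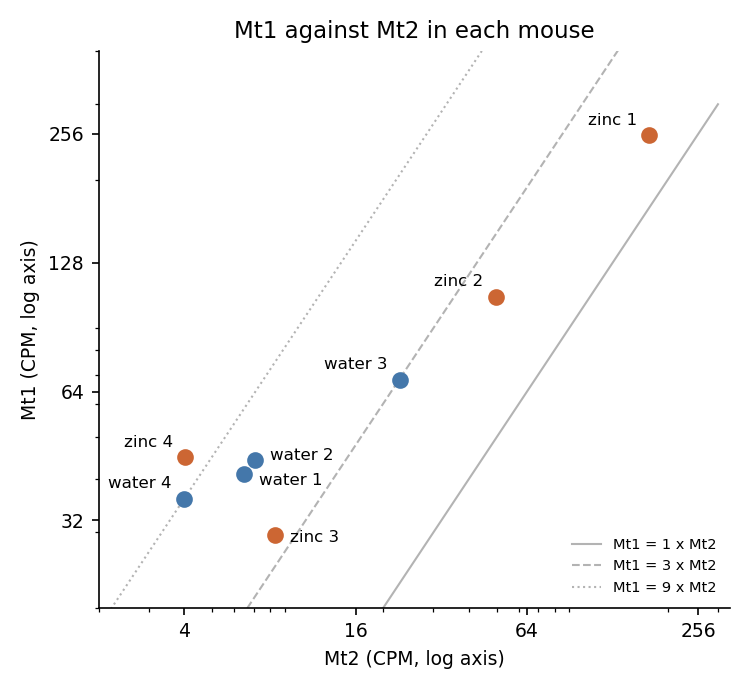
Mt1 against Mt2 in CPM on log axes, 1 point per mouse, blue for Milli-Q water and orange for zinc. Gray lines mark Mt1 at 1, 3 and 9 times Mt2, and the points cross from the line of 9 at the lower left to between the lines of 1 and 3 at the upper right, where zinc replicates 1 and 2 lie.

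Across mice, log2 CPM of Mt1 and Mt2 moved together, with Pearson's r of 0.944 (n = 8, exact permutation p = 0.00218, adjusted 0.00655 over 3 relations). Spearman's rho was 0.690 (exact permutation p = 0.0694, adjusted 0.208). Without zinc replicates 1 and 2, the libraries farthest from the median, r was 0.628 (n = 6, exact permutation p = 0.189) and rho 0.257, so the relation rests on those mice. As deviations from the group means r was 0.934, and in the 6 libraries without water replicates 3 and 4 it was 0.944.

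Mtf1 had no detectable relation to either gene. Its r with Mt1 was 0.242 (n = 8, exact permutation p = 0.521, adjusted 0.781; rho 0.262, permutation p = 0.536), and -0.287 without zinc replicate 3. With Mt2 it was -0.0483 (n = 8, exact permutation p = 0.907, adjusted 0.907; rho -0.286, permutation p = 0.501). Leaving out zinc replicates 3 and 4, where Mtf1 was farthest from its median, gave r of -0.185 with Mt1 and -0.240 with Mt2 (n = 6).

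Other genes of the pathway were taken from a list of 9 genes with a known link to MTF-1, of which 7 passed the expression filter. By edgeR's adjusted p 0 of the 7 were called (0% of all genes), and 2 of 7 had an unadjusted p under 0.05, both higher with zinc, where 10.2% of all genes had one. Of these 2, Slc30a1 had 6, 15, 4 and 0 counts on water and 51, 45, 28 and 6 on zinc. It passed the filter mainly through its zinc libraries, so its direction in this count was favored in advance. Of the 7, 4 had a log2 fold change above 0 and 3 below, with a median of 0.13 beside 0.0062 over all genes. The 3 below include Slc39a10, known as a gene that MTF-1 holds down when zinc is high. Csrp1 and Ndrg1 turned sign without zinc replicate 3, so the split and the median do not measure a direction of the pathway. MRE letters stood in the canonical window of 4 of the 9 genes, beside 27.4% for all protein-coding genes, expressed or not.

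The zinc exporter genes had the highest upward log2 fold changes of the 7. Slc30a1, which codes for the exporter of the plasma membrane, stood at 0.410, 0.893, 0.492 and 0 CPM on water and at 4.78, 3.23, 1.96 and 0.484 CPM on zinc. Only zinc replicate 4 lay in the water range. From 155 counts in all, the log2 fold change was 2.47 (SE 0.790, edgeR adjusted p = 0.485), with 2.03 without zinc replicate 1, 2.80 without zinc replicate 4 and 1.96 without water replicates 3 and 4. Its canonical window held 2 MRE matches, as did those of Csrp1 and Selenow. That of Ndrg1 held 3, and those of Slc30a2, Slc39a10 and Gclc held 0.

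Slc30a2, whose product loads zinc into vesicles and PC granules, stood at 85.5, 70.1, 65.1 and 74.8 CPM on water and at 123, 90.4, 104 and 94.7 CPM on zinc. All zinc mice were above all water mice, the one case of this among the 7 genes and the members, beside 5.87% of all genes whose groups did not overlap in either direction and 2.76% that were higher with zinc without overlap. The log2 fold change was 0.48 (SE 0.152, edgeR adjusted p = 0.485), with the adjusted p = 0.50 without zinc replicate 3 and adjusted p = 0.207 without zinc replicate 4.

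The importer gene Slc39a10, known as a gene that MTF-1 holds down when zinc is high, stood at 49.6, 55.5, 38.3 and 45.3 CPM on water. On zinc it stood at 11.9, 18.8, 30.5 and 51.5 CPM. The first 3 zinc mice were below every water mouse and replicate 4 was inside the water range. The log2 fold change was -0.74 (SE 0.365, edgeR adjusted p = 0.491), with -1.21 without zinc replicate 4 (adjusted p = 0.140) and -0.50 without zinc replicate 1 (adjusted p = 0.614).

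In the other 4 tested genes of the list the groups overlapped. Gclc, for a subunit of the enzyme that starts glutathione synthesis, ran from 303 to 471 CPM on water and stood at 377, 287, 35.2 and 292 CPM on zinc. Its low value belonged to zinc replicate 3, and the log2 fold change was -0.52, or -0.15 without that library. Csrp1, a LIM domain protein gene, stood at 140, 110, 53.0 and 108 CPM on zinc, Ndrg1 at 146 CPM in zinc replicate 3 against 56.0 to 92.2 CPM in the other 7 mice, and Selenow, for a selenoprotein, at 13.4 to 28.3 CPM over all mice. Their log2 fold changes were -0.10, 0.13 and 0.36, and without zinc replicate 3 those of Csrp1 and Ndrg1 turned sign, to 0.13 and -0.26. Without water replicates 3 and 4 the value of Selenow was 0.65 (edgeR adjusted p = 0.855) and that of Ndrg1 turned to -0.10. Slc40a1, the iron exporter gene, had 15 counts, all in zinc replicate 3, and the growth factor gene Pgf had 1 count.

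**Figure D4:**
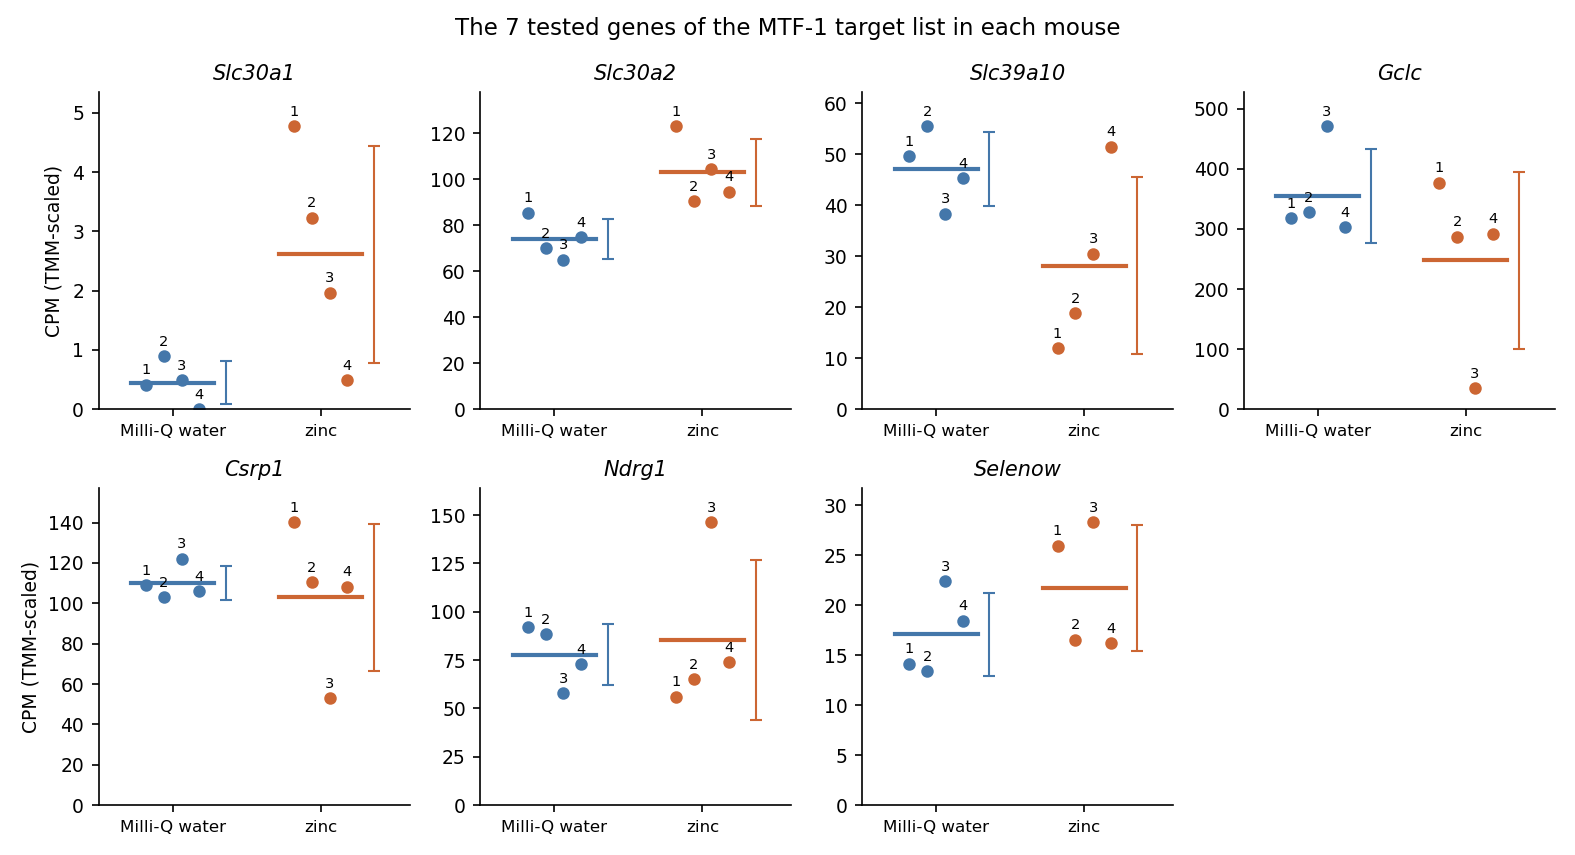
CPM of the 7 tested genes of the MTF-1 list in each mouse, with numbered points for the replicates, a line for the group mean and an error bar of ± 1 SD (n = 4). Slc30a2 is the panel in which the groups do not overlap, zinc replicate 4 lies in the water range for Slc30a1 and Slc39a10, and zinc replicate 3 is the low point for Gclc and Csrp1 and the high point for Ndrg1.

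Genes that track the metallothioneins were ranked by Pearson's r with the mean log2 CPM of Mt1 and Mt2 among 7659 genes of at least 5 CPM. This is a description over 8 mice that share 2 groups. The first 10 were Tmem97, Tmem54, Cyp51, Fbl, Far2, Mllt6, Phaf1, Epha1, Riox1 and Impdh2, with r from 0.92 to 0.88. An r of 0.9 was reached by 3 genes (0.0392%).

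Tmem97, for a sterol-regulated membrane protein, stood at 18.8, 17.3, 23.8 and 15.9 CPM on water and 29.4, 25.7, 21.5 and 18.2 CPM on zinc. Cyp51, for a demethylase of cholesterol synthesis, stood at 29.9, 27.3, 28.4 and 26.0 CPM on water and 39, 34.6, 23.6 and 26.0 CPM on zinc. For both genes zinc replicates 1 and 2 were the highest mice, as for Mt1 and Mt2, but the span between mice was far smaller. Far2 makes fatty alcohols and reached 19.7 CPM in zinc replicate 1 against 6.45 to 12.8 CPM in the others. Fbl codes for fibrillarin of the nucleolus and Impdh2 for the rate-limiting enzyme of guanine nucleotide synthesis. The edgeR log2 fold changes of the 10 ran from 0.05 to 0.37, and none was called. MRE letters stood in 6 of the 10 windows, beside 27.4% for all protein-coding genes, expressed or not. The ranked genes alone were not taken as a background. In the other sets named below the count was 5 of 10 for the list without zinc replicate 3 and 1 of 5 for the lowest genes. For the genes highest with Mtf1 it was 3 of 5, and 1 of 5 without zinc replicate 3. A high count was thus also seen for the genes highest with Mtf1 over 8 libraries. Lists of 5 or 10 genes are too small to tell whether it is particular to any of them.

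Without zinc replicate 3 the list was a different one, with only Tmem97 and Tmem54 shared. The first 10 were then Anapc5, Ephb4, Msi1, Shank2, Aldh1b1, Phb2, Tmem54, Tmem97, Olfm4 and Papss1, with r from 0.98 to 0.96, and 70 genes (0.914%) reached 0.9. Olfm4, a secreted glycoprotein that marks crypt stem cells, stood at 639, 413, 482 and 113 CPM on zinc and at 182, 219, 305 and 142 CPM on water. Msi1, for an RNA-binding protein of intestinal stem cells, stood at 17.2, 11.5, 30.5 and 8.71 CPM on zinc and 7.6 to 11 CPM on water. Aldh1b1, a mitochondrial aldehyde dehydrogenase gene, stood at 75.6, 43.7, 245 and 22.7 CPM on zinc and 21.7 to 30 CPM on water. These genes were high in zinc replicates 1 to 3, so that their r with the metallothioneins over 8 mice was lower, at 0.77 for Olfm4, 0.32 for Msi1 and 0.26 for Aldh1b1.

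The summed level of 8 crypt stem cell markers, Olfm4 among them, was 1020, 754, 851 and 467 CPM on zinc and 462 to 602 CPM on water. It was thus high in zinc replicates 1 and 2, where the metallothioneins were high, and in replicate 3, where they were not. Of the 7 tested, 6 had a log2 fold change above 0, 3 had an unadjusted p under 0.05 and 0 were called by edgeR, where over all genes 50.8% were above 0 and 10.2% had such a p. Enterocyte markers summed to 467, 417, 845 and 353 CPM on zinc and 340 to 391 CPM on water, with all 9 tested above 0. Goblet cell markers overlapped, at 10672 to 15397 CPM on zinc and 10409 to 15088 CPM on water. Enteroendocrine and tuft markers stayed between 0.985 and 12.8 CPM in all mice. Immune and stromal markers summed to 32.3 to 41.2 CPM on zinc and 47.0 to 102 CPM on water, without overlap. Over all genes the groups did not overlap in 5.87%. Of the 12 genes, 9 had under 50 counts, 4 of these with 0, so the sum rests on few genes. Cd74, 1 of the 4 genes called by DESeq2 (log2 fold change -1.56, adjusted p = 0.00317), is in this list. Whether fewer cells or less RNA per cell lay behind the lower sum was not tested. Nor was it tested which cells, the PCs included, the counts of these genes came from. All 3 tested genes of the list were below 0 in edgeR's log2 fold change (median -1.55), and 2 had an unadjusted p under 0.05, lower with zinc. The part of other cells in the metallothionein levels was not tested.

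At the other end of the ranking stood Sigirr, Abhd4, Slc39a10, Flad1 and Shroom1, with r from -0.93 to -0.90. Slc39a10, described above as an importer from the MTF-1 list, thus stood 3 places from the low end of 7659 genes by this measure (r = -0.91, and -0.96 without zinc replicate 3). Sigirr, for an inhibitor of interleukin-1 and Toll-like receptor signaling, stood at 12.9, 13.4, 12.7 and 14.1 CPM on water and 9.18, 10.2, 12.1 and 13.2 CPM on zinc. Zinc replicate 1 was the lowest mouse for Sigirr, as it was for Slc39a10. Of the others in the MTF-1 list, r was 0.51 for Csrp1, 0.47 for Slc30a2, 0.40 for Selenow, 0.31 for Gclc and -0.61 for Ndrg1. Without zinc replicate 3 it was 0.85 for Csrp1, 0.61 for Slc30a2, 0.70 for Selenow, 0.38 for Gclc and -0.75 for Ndrg1. Values of r were then more extreme over all genes, with 103 at -0.9 or lower against 5 over 8 libraries. The share of genes ranked above rose for Slc30a2 (7.95% to 10.3%) and Gclc (17.0% to 22.2%). It fell for Csrp1 (6.37% to 1.87%), Selenow (11.5% to 7.05%), Ndrg1 (96.1% to 92.3%) and Slc39a10 (99.96% to 99.82%). Mtf1 itself had an r of 0.053, or -0.37 without that library. Slc30a1, too low for the ranking, had an r of 0.69, or 0.80 without zinc replicate 3.

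**Figure D5:**
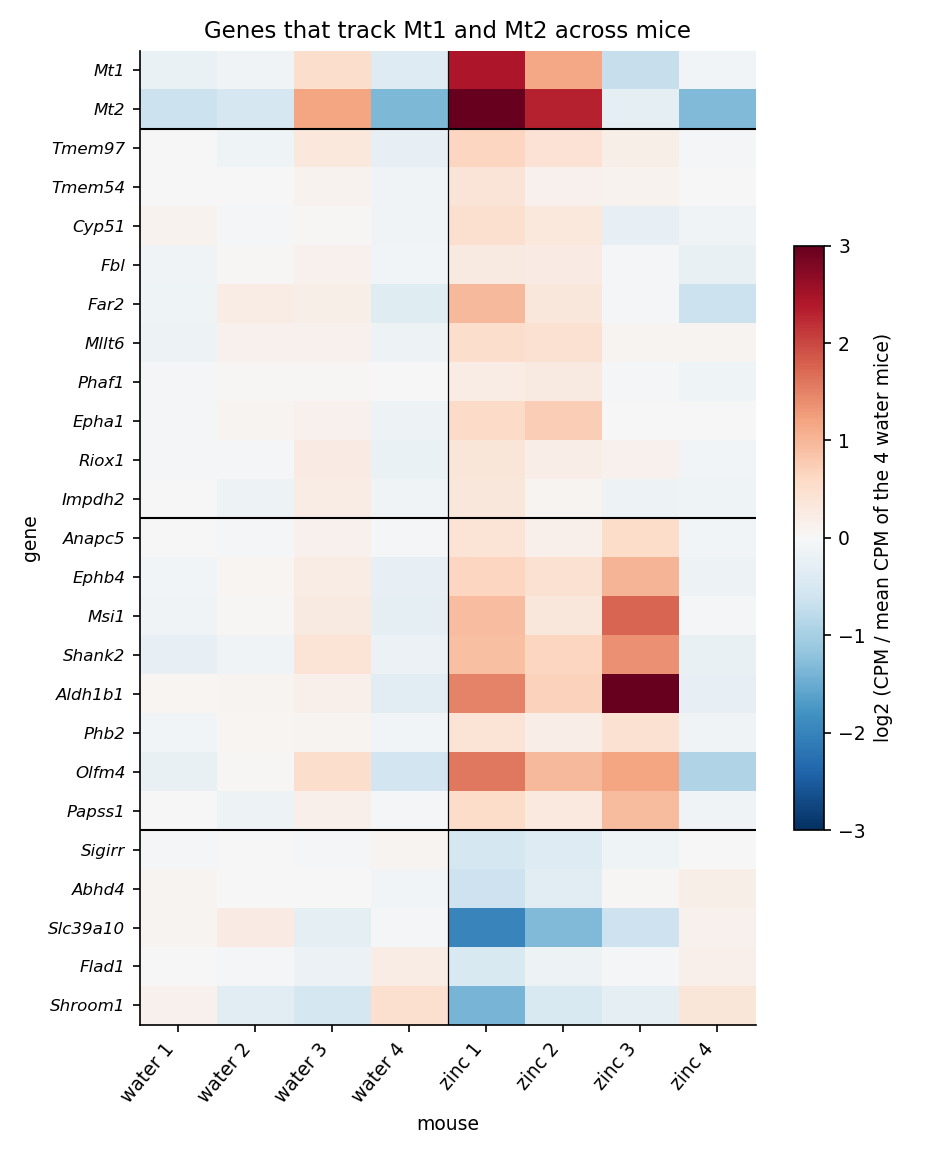
Heatmap of log2 CPM relative to the mean of the water mice, with genes in rows and mice in columns; red is higher and blue lower, and the colors saturate at 3 in either direction. From the top, the blocks are Mt1 and Mt2, then the 10 genes with the highest r over 8 libraries. Below are the 8 further genes from the 10 highest without zinc replicate 3, and then the 5 lowest. The third block is above the water mean in zinc replicates 1 to 3, for some genes only slightly. Among the zinc mice Mt1 and Mt2 are red in replicates 1 and 2 alone, and both are also above the water mean in water replicate 3.

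The genes that track Mtf1 were others. Over 8 libraries the highest were Carmil1, Atp2c1, Sec24c, Faf2 and Atp1b1, all with r of 0.99, and 498 genes reached 0.9. Atp2c1, for the calcium and manganese pump of the Golgi, stood at 87.4, 91.8, 68.6 and 81.6 CPM on water and 82.6, 79.1, 45.2 and 96.0 CPM on zinc, lowest in zinc replicate 3 like Mtf1. Sec24c, a coat protein gene of vesicles leaving the endoplasmic reticulum, went from 106 CPM in zinc replicate 3 to 143 CPM in zinc replicate 4. Without zinc replicate 3 the highest were Adcy8, Ptprk, Erbb3, Tgfbr1 and Stxbp5, none of them shared with the first 5, and 103 genes reached 0.9.

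Other pathways that reach the metallothionein genes were followed by the summed CPM of lists. IL-6 and STAT3 response genes summed to 3473, 5858, 1048 and 9264 CPM on zinc and to 8411 to 11525 CPM on water, with all 10 below 0 in log2 fold change. Glucocorticoid response genes summed to 248, 421, 219 and 443 CPM on zinc and to 409 to 494 CPM on water, with 7 of 10 above 0. Nrf2 targets summed to 625, 629, 201 and 723 CPM on zinc and 673 to 828 CPM on water, with 6 of 7 tested below 0. Over all genes 50.8% were above 0. Zinc replicate 3 had the lowest sum of each list and is part of these fold changes. The directions without that library are not given here. In zinc replicate 1, where Mt1 and Mt2 were highest, each of these 3 sums was below the water range. So was that of the TNF and NF-kB genes (1884 CPM against 1911 to 2222 CPM). All 18 of these genes were below 0 in log2 fold change, in a fit that includes zinc replicate 3, at 172 CPM. The other zinc mice stood at 1884, 1893 and 1915 CPM, the last inside the water range. In zinc replicate 3, where Mt1 and Mt2 were not high, the sums of all these lists were below the water range. In zinc replicate 2, where they were high, the glucocorticoid sum was inside the water range and the other sums were below it. By edgeR 0 genes of these lists were called, and their part in the metallothionein levels was not tested.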

How the data were processed

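RNA-seq was done on FACS-sorted PCs of 8 mice, 4 per group, grouped by their labels. The authors deposited raw read counts per Ensembl gene, with no normalization; libraries were made with a stranded mRNA kit. The submitters' processing notes name FastQC 0.12.0, STAR 2.7.10a, DESeq2 and mm39, while the counting rule and annotation release are not given in the sources used here. Identifiers were matched to GENCODE M39 (54749 of 55414; the others held 0.00443% of counts). Zinc was compared with water by edgeR 4.0.16 (R 4.3.3; quasi-likelihood, TMM, default filter, Benjamini-Hochberg over 10707 genes, threshold 0.05), with DESeq2 1.42.0 and limma 3.58.1 as alternatives. On counts simulated for 10707 genes in this comparison, the fit recovered 34% of the genes changed by 1 on the log2 scale and 88% of those changed by 2, with 7 unchanged genes among 129 called. The changed genes were drawn at random, each with its own fitted spread. These shares are therefore not the power for Mt1 or Mt2, whose fold changes had an SE of 0.563 and 1.02. The ratio used a pseudocount of 0.5 and correlations log2 CPM with a prior count of 0.5, with exact permutation tests (scipy 1.17.1). Members, lists and rules were chosen with earlier results of these data known. Named genes were the metallothioneins, Mtf1, the MTF-1 list, and the 10 highest and 5 lowest by r with Mt1 and Mt2 and 5 highest with Mtf1, with the highest also taken without zinc replicate 3; members of other lists were named only where a result turned on them. No 2 libraries of the 28 pairs agreed within sampling noise (chi-square over its degrees of freedom at least 4.91). Other settings were leaving out libraries, other scalings and filters, a length correction and the replicate number as a block.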

Additional observations from a re-analysis of the deposited data

Results flagged for a closer look

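Zinc replicate 3 stood far below the other zinc mice in 3 of the 44 groups of 4 values searched, where chance would give about 2.2. All 3 fell on this library and the groups share genes, so the number given by chance does not judge this library. For Gclc its log2 CPM was 5.137, and the other zinc mice lay between 8.16 and 8.56. For the TNF and NF-kB response list, the log2 of its summed CPM was 7.43, against 10.88 to 10.90. For the summed CPM of the Nrf2 targets, a list that holds Gclc too, it was 7.649, against 9.29 to 9.50. Mt1 and Mtf1 were also lowest of all 8 mice in this library, at 29.5 and 9.68 CPM, without such a gap.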

How the results depend on the processing

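Of 19 alternatives for each member, the Mt1 and Mt2 changes kept their sign, and missed the adjusted threshold in the 18 that give an adjusted p. Leaving out 1 mouse gave 0.36 to 1.52 for Mt1, 1.09 to 3.31 for Mt2 and -0.31 to 0.061 for Mtf1, which turned sign without zinc replicate 3; adjusted p ran from 0.237 to 0.855 for Mt1, from 0.184 to 0.855 for Mt2 and from 0.486 to 0.964 for Mtf1. The equal weighting of mice was chosen after seeing the data. The count of genes called was 0 in edgeR and 4 with DESeq2. The r of Mtf1 with Mt1 ran from -0.287 (without zinc replicate 3) to 0.335 when 1 mouse was left out. That of Mtf1 with Mt2 ran from -0.413 to 0.110 (without zinc replicate 4), with 0.0245 without water replicate 2, and was 0.0703 as deviations from group means. Of the 10 tracking genes, 2 stayed among the 10 as deviations from group means, 2 by Spearman's rho, 5 at a mean of 20 CPM, and 2 to 7 when 1 mouse was left out. The ratio difference kept its sign in 11 alternatives, from -1.35 to -0.38 when 1 mouse was left out. Of these, the block (smallest p 0.125) and the 6 libraries (smallest p 0.0667) could not pass 0.05 by design.

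The replicate number as a block gave 0.77 for Mt1, 1.61 for Mt2 and -0.18 for Mtf1. The numbers did not pair the mice (correlations of deviations -0.0146 to 0.0301), and the block added no call. With 97 counts for Mt3 and 155 for Slc30a1, depth limits the precision of these genes.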

Other observations

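Zinc replicate 4 was the zinc mouse with most values at water levels. Its Mt2 level was 4.03 CPM, beside 4.00 CPM in water replicate 4, and its Slc30a1 (0.484 CPM) and Slc39a10 (51.5 CPM) levels lay inside the water range. Olfm4, at 113 CPM, was below all water mice there, while Slc30a2, at 94.7 CPM, was above all of them. Zinc intake per mouse was not analysed here.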
